A study of Mus musculus with 6 samples.

Results

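Chromatin accessibility was followed at 10 mouse genes that read or shape glucocorticoid and thyroid hormone signals, in nephron progenitors taken before birth and on the day of birth. The genes were the corticosteroid receptors Nr3c1 and Nr3c2, the thyroid hormone receptors Thra and Thrb, the corticosteroid converting enzymes Hsd11b1 and Hsd11b2, and the glucocorticoid-induced genes Fkbp5, Tsc22d3, Per1 and Zbtb16. A region of open chromatin was assigned to a gene when its midpoint lay in the gene body or within 50 kb of it in mm10, with no use of its counts. This gave 60 of the 43523 distinct regions in the table.

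The study compared 3 ATAC-seq libraries from mouse embryos at E14.5 (days after fertilization) with 3 from the day of birth (P0). Each library came from the progenitors of one litter of CD1 mice, with up to 24 kidneys pooled and 50000 cells used, and no mutation or treatment was given for either stage. ATAC-seq cuts open chromatin with the Tn5 transposase, so the count of a region measures how open it was, not how strongly a gene was expressed. The progenitors were selected by antibodies to the surface protein Itga8 on magnetic beads, after a short digestion of the outer kidney.

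As background, glucocorticoids bind the receptor made by Nr3c1, which then moves to the nucleus and acts at its target genes, while the receptor made by Nr3c2 responds to aldosterone and, where Hsd11b2 does not inactivate them, to glucocorticoids. Thyroid hormone acts through receptors made by Thra and Thrb that sit on DNA with or without hormone. In rodents glucocorticoids rise in the fetus shortly before birth and thyroid hormone rises after birth, and both act on the maturation of many organs, the kidney among them.

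The 6 libraries held 6492996 to 12292629 counts in regions, and the 60 regions took 0.113% to 0.124% of them. Their mean share was 0.118% ± 0.00458 for E14.5 and 0.119% ± 0.00551 for P0 (SD, n = 3), a difference within the spread between libraries (exact two-sided permutation test, p = 0.9; with 3 against 3 the smallest possible p is 0.1). Counts per member region and library ran from 11 to 1239. Of 9 progenitor genes checked, 7 had an open region at the start site, Six2, Cited1, Osr1, Eya1, Sall1, Wt1 and Itga8, and Pax2 and Meox1 had none. Start regions were also open for 2 of 6 stromal genes (Foxd1 and Tbx18), 4 of 5 ureteric genes, 1 of 5 endothelial genes (Kdr) and 0 of 4 immune genes. Their summed accessibility, in CPM (counts scaled to a common library size), was 209 to 214 CPM at E14.5 and 178 to 238 CPM at P0 for the progenitor genes, 58.2 to 69.6 and 46.3 to 60.5 for the stromal genes, 129 to 151 and 111 to 139 for the ureteric genes, and 19.8 to 29.6 and 22.7 to 31.2 for Kdr. The ranges of these sums overlapped between the stages in each of the 4 groups. Single markers with separate stages were Osr1 and the ureteric gene Wnt11, both higher at P0, and the ureteric gene Calb1, lower at P0 (edgeR adjusted p of 0.386, 0.424 and 0.579). The part of other cell types in the results was not tested. In pooled cells, a change in the share of cells that are open at a region and a change in how open it is per cell cannot be told apart.

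The promoter stretches of 4 members are printed because each lies inside a region measured here and holds letters that hormone receptors or the circadian clock proteins can bind. Each is the 250 bases before a RefSeq start (GRCm38.p6, the assembly of mm10), read 5′ to 3′ on the strand of the gene. Capitals mark the glucocorticoid half-site TGTTCT, the thyroid hormone half-site AGGTCA and the E-box CACGTG, on either strand.
Tsc22d3 start 1: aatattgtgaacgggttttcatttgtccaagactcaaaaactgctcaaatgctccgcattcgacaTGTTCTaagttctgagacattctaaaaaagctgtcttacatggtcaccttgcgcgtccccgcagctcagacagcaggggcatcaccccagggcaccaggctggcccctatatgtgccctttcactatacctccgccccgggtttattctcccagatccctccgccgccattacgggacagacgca
Fkbp5 start 1: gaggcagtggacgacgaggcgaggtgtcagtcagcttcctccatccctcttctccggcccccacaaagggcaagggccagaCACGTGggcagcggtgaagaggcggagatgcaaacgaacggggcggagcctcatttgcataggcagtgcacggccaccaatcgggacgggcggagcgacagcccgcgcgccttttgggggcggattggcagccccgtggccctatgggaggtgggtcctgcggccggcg
Per1 start 1: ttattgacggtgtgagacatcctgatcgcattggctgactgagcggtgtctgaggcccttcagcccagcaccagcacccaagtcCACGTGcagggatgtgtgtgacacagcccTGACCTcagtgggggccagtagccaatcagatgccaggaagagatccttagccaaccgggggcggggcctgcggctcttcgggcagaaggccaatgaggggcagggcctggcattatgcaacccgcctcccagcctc
Thrb start 1: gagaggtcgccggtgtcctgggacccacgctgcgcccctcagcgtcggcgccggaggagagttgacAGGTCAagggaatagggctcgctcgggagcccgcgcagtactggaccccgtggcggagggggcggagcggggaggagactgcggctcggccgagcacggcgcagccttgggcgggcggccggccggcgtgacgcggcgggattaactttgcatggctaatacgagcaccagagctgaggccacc

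The Tsc22d3 stretch lies at chrX:140600523-140600772 on the minus strand, in Tsc22d3 region 5, and its TGTTCT match starts 185 bases before the start site. The Fkbp5 stretch lies at chr17:28486150-28486399 on the minus strand, in Fkbp5 region 2, with a CACGTG match starting at 169 bases before the start. The Per1 stretch lies at chr11:69098699-69098948 on the plus strand, in Per1 region 6, and holds CACGTG 166 bases and AGGTCA 137 bases before the start. The Thrb stretch lies at chr14:17660710-17660959 on the plus strand, in Thrb region 2, and its AGGTCA match starts 184 bases before the start site.

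The RefSeq promoter stretches used here covered 10 start sites of 6 members, Nr3c2, Fkbp5, Tsc22d3, Per1, Thrb and Hsd11b1. Nr3c1, Zbtb16, Thra and Hsd11b2 were missing from that set, so their promoters were not searched. TGTTCT was present before 2 of the 10 starts (Tsc22d3 and the other Thrb start) and in 16.1% of all 32851 promoters searched the same way. AGGTCA was present before 2 of the 10, at Per1 and Thrb, and in 14.0% of all promoters. CACGTG was present before 3 of the 10, at Fkbp5, Per1 and the other Thrb start, and in 6.02% of all. The complete glucocorticoid response element (AGAACA and TGTTCT with any 3 bases between), its core ACANNNTGT, the direct repeat of AGGTCA with any 4 bases between and the cyclic AMP response element TGACGTCA were before 0 of the 10 starts, and in 0.00913%, 5.84%, 0.0152% and 1.55% of all promoters. The core and TGTTCT both lie within the complete element, and the repeat is made of AGGTCA. These matches describe letters in a window and do not show that a factor was bound.

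Between the stages, 1 of the 60 regions passed an adjusted p of 0.05 (edgeR quasi-likelihood test, Benjamini-Hochberg over all 43523 regions), a region beyond the 3′ end of Tsc22d3 that was more open at P0. That is 1.67% of the member regions, against 4.73% of all regions called in either direction. Of all regions 1.79% were called higher at P0 and 2.94% lower, and 0 of the 60 were called lower. At an unadjusted p under 0.05, 5 of the 60 passed (8.33%), against 18.7% of all regions. The fitted log2 fold change, P0 over E14.5, was above 0 for 24 of the 60 and below 0 for 36, with a median of -0.08 beside 0.01 over all regions. In 8 of the 60 regions (13.3%) the 3 libraries of one stage all lay above the 3 of the other, against 24.2% of all regions.

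Promoters make up more of the member regions than of the table, 46.7% against 32.4%. Of all promoter regions 0.851% passed the test, and of all regions outside promoters 6.59%. Among member regions, 0 of the 28 promoter regions were called by edgeR (1 at an unadjusted p under 0.05), and 1 of the 32 others (3.12%; 4 at an unadjusted p under 0.05). These unadjusted counts are 3.57% and 12.5% of the member regions, against 8.73% of all promoter regions and 23.5% of all regions outside promoters. The members' median was -0.15 at their promoter regions beside -0.10 at all promoter regions, and 0.01 outside promoters beside 0.10. Of the 32 member regions outside promoters, 11 lie at Thrb, and these had a median of 0.17. The 95% confidence interval of the fold change lay within 2-fold in either direction for 45 of the 60 regions (75.0%), against 72.1% of all regions. For the remaining 15 member regions a change of 2-fold was not outside the interval. On counts simulated for all 43523 regions with 200 changed 2-fold between E14.5 and P0, the same test recovered 32%. The measured counts gave 2059 calls, and the adjustment is less strict where more regions change. The 32% is therefore not an estimate of the share recovered in the measured counts.

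**Figure D1:**
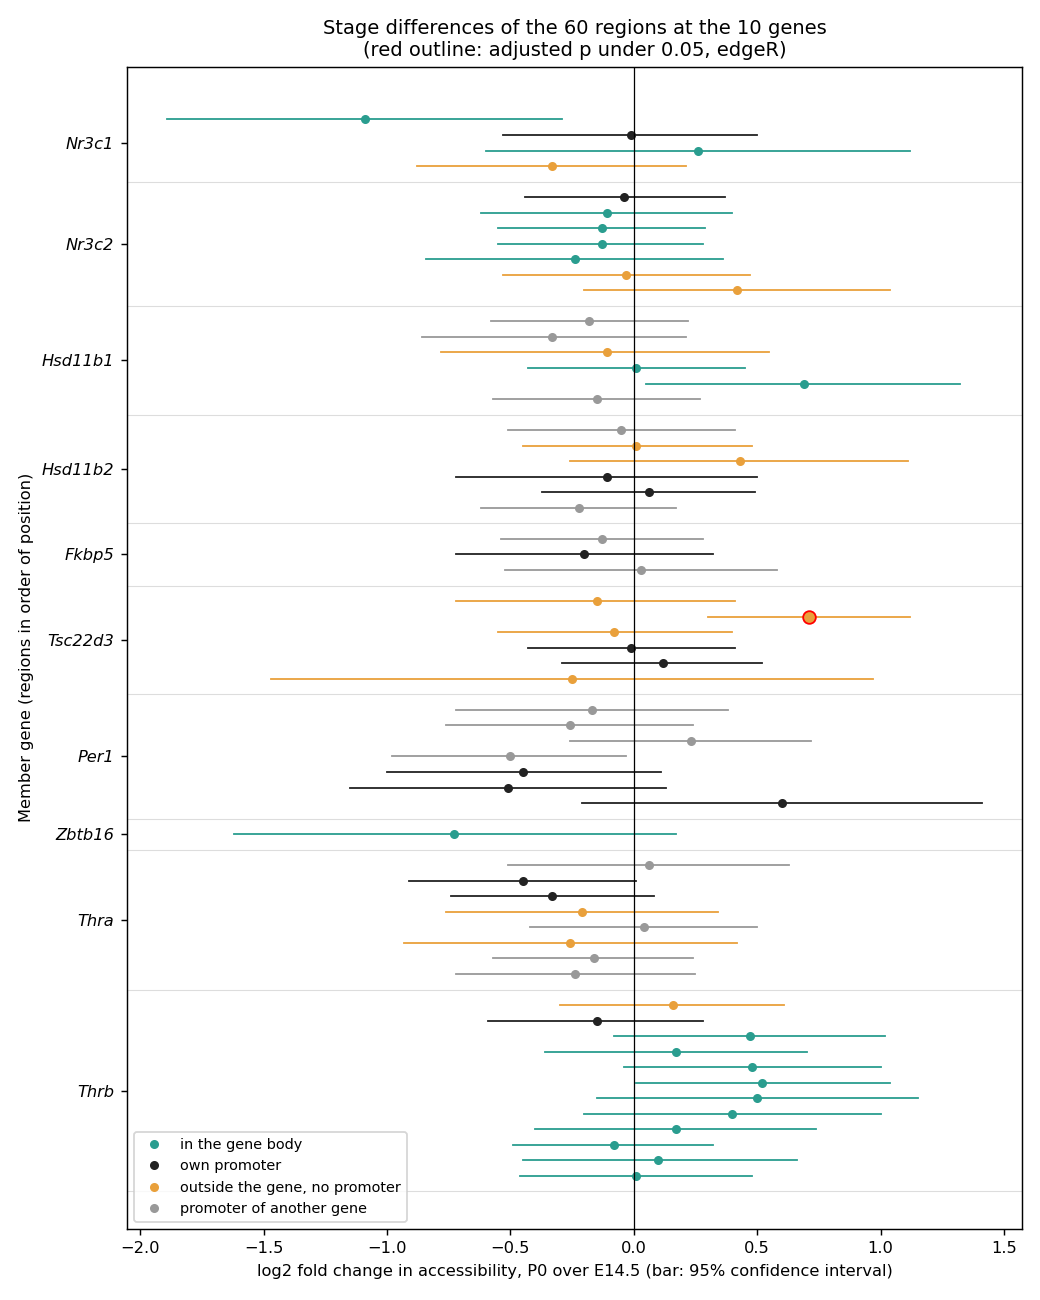
Fitted log2 fold change of each of the 60 regions (x axis, P0 over E14.5; points with 95% confidence intervals), grouped by gene on the y axis and coloured by the place of the region. A single region, Tsc22d3 region 2 at 0.71, carries the red outline of an adjusted p under 0.05, and most other intervals span 0.

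The promoters of the receptors were open at both stages. Nr3c1, which encodes the glucocorticoid receptor, has 4 regions on chromosome 18, and its promoter region (chr18:39488921-39492043) had 63.5, 54.4 and 69.8 CPM in E14.5 libraries 1 to 3 and 57.0, 43.1 and 85.4 CPM in P0 libraries 1 to 3. The P0 libraries spanned the whole E14.5 range, and the fitted log2 fold change was -0.01 (SE 0.24; edgeR adjusted p = 0.989). With a 95% interval of -0.53 to 0.50, a change of 2-fold in either direction lay outside it.

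Inside Nr3c1, a small region at chr18:39460882-39461424 had the lowest fitted value of all 60 regions. It had 4.27, 4.73 and 7.24 CPM at E14.5 and 2.08, 1.97 and 3.39 CPM at P0. All 3 P0 libraries lay below all 3 E14.5 libraries. Its log2 fold change was -1.09 (SE 0.38), and the adjusted p was 0.12 (edgeR; unadjusted p = 0.0111), so it was not called. It was the one member region with a fitted change of at least 2-fold, and 4.09% of all regions had one. A further region 8.93 kb beyond the gene also had its P0 libraries below those of E14.5 (8.95 ± 0.502 against 7.11 ± 0.888 CPM, mean ± SD, n = 3; log2 fold change -0.33, edgeR adjusted p = 0.537).

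Nr3c2, which encodes the mineralocorticoid receptor, had the most accessible member promoter for its length. Its promoter region (chr8:76901628-76902601) had 94.8, 89.7 and 94.9 CPM at E14.5 and 97.1, 88.8 and 86.4 CPM at P0. The values of the stages interleaved, at -0.04 (SE 0.19; edgeR adjusted p = 0.946). At 94.4 CPM per kb of region it lay at the 99.7th percentile of all regions and at the 99.2nd of promoter regions. The 4 regions in the gene body had fitted changes of -0.24 to -0.11, and none was called. The region with the smallest p, 43.6 kb beyond the gene and inside Arhgap10, had 4.27, 5.78 and 5.96 CPM at E14.5 and 7.50, 8.02 and 6.08 CPM at P0. Its P0 libraries all lay above those of E14.5, by 0.42 (SE 0.29), with an edgeR adjusted p of 0.484.

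At Thra, the gene of thyroid hormone receptor alpha, the promoter regions had separate stages, the only 2 of the 13 own-promoter regions (15.4%). Of all promoter regions 16.7% had separate stages, 653 with P0 above and 1708 with P0 below. A pair of overlapping regions covers the start, chr11:98740063-98742487 and chr11:98740063-98743411, so they share reads and are not independent. The shorter had 20.4, 17.4 and 14.48 CPM at E14.5 and 12.7, 11.7 and 13.8 CPM at P0. Every P0 library lay below every E14.5 library, though E14.5 library 3 and P0 library 3 were close. The log2 fold change was -0.45 (SE 0.21; edgeR adjusted p = 0.275), and for the longer region -0.33 (SE 0.19; adjusted p = 0.389).

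Per kb, the Thra promoter was less accessible than the other receptor promoters, at 6.22 CPM per kb for the shorter region (15.4th percentile of all regions) against 19.9 for Nr3c1 (88.3rd), 94.4 for Nr3c2 and 37.9 for Thrb (96.7th). The most accessible region in the Thra window by CPM was the promoter of Msl1, 26.8 kb away, with E14.5 and P0 means of 31.4 ± 3.90 and 28.1 ± 2.87 CPM (SD, n = 3; -0.16, edgeR adjusted p = 0.712). The promoter of Nr1d1, which encodes the clock repressor Rev-erb alpha and lies at the 3′ side of Thra, had 14.9, 14.7 and 15.1 CPM at E14.5 and 12.6, 14.4 and 18.8 at P0. Its P0 libraries fell on both sides of the E14.5 libraries (0.04, edgeR adjusted p = 0.949).

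Thrb, the gene of thyroid hormone receptor beta, had 12 regions over a span of 381 kb. Its promoter region (chr14:17659046-17661510) had 101, 99.1 and 94.9 CPM at E14.5 and 96.7, 70.4 and 97.8 CPM at P0. P0 library 2 was the lowest by a wide margin and the rest overlapped, at -0.15 (SE 0.21; edgeR adjusted p = 0.752). Without that library the value was -0.02. Of the other 11 regions, 10 had a fitted value above 0, with a median of 0.17 over the 11 regions, beside 0.10 over all regions outside promoters, of which 59.3% were above 0.

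The Thrb region with the smallest p was chr14:17849844-17851251, in the gene body, with 12.8, 22.9 and 12.4 CPM at E14.5 and 21.3, 25.0 and 23.3 CPM at P0. E14.5 library 2 lay among the P0 libraries, and the other E14.5 libraries lay well below. Its log2 fold change was 0.52 (SE 0.24; edgeR adjusted p = 0.256; unadjusted p = 0.046). Of the other regions outside the promoter, 4 in the gene body had changes of 0.40 to 0.50, with adjusted p of 0.311 to 0.494. In none of the 11 were the stages apart, and none passed the test (edgeR; 1 at an unadjusted p under 0.05). Of all regions outside promoters the stages were apart in 27.8%, and 6.59% passed (23.5% at that unadjusted p).

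The same libraries were often the highest or lowest across these regions, and whether that order is particular to Thrb was not tested. E14.5 library 2 was the highest of its stage in 6 of the 11 regions, and E14.5 library 3 the lowest in 7. P0 library 2 was the highest of its stage in 7 of the 11, and P0 library 3 the lowest in 10. Summed over the 11 regions, accessibility was 161, 185 and 145 CPM at E14.5 and 210, 212 and 161 CPM at P0. The means were 164 ± 20.6 and 194 ± 28.9 CPM (SD, n = 3), and P0 library 3 lay inside the E14.5 range (exact two-sided permutation test, p = 0.2). Without E14.5 library 2 the region above passed the test, at 0.87 with an edgeR adjusted p of 0.0285.

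**Figure D2:**
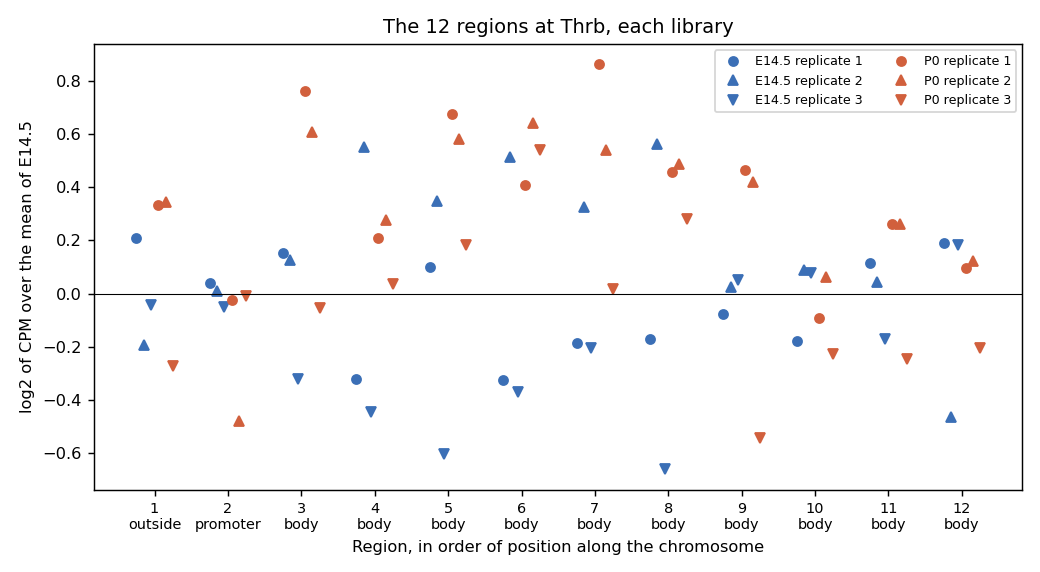
Each library at each of the 12 Thrb regions, in order of position (x axis); the y axis is the log2 of CPM over the E14.5 mean of that region. Region 2 is the promoter. Most P0 points of the gene-body regions 3 to 8 lie above 0, and E14.5 library 2 lies above the lowest P0 library at each of these regions.

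The enzymes Hsd11b1 and Hsd11b2 work in opposite directions, the first regenerating active glucocorticoid inside cells and the second inactivating it. Neither had a called region (edgeR, 0 of 12, with 1 at an unadjusted p under 0.05, or 8.33%), against 4.73% called and 18.7% at that unadjusted p over all regions. Of the 12 regions 58.3% were promoters, and over all promoter regions the shares were 0.851% and 8.73%. The median over their 12 regions was -0.08. No region at Hsd11b1 was annotated as its promoter. Its region with the smallest p, chr1:193252459-193253612, lies in the gene body and overlaps an exon, with 4.51, 6.57 and 3.85 CPM at E14.5 and 8.33, 7.26 and 8.60 CPM at P0. The P0 libraries all lay above the E14.5 libraries. Its log2 fold change was 0.69 (SE 0.30; edgeR adjusted p = 0.222; unadjusted p = 0.0353).

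The other region in the Hsd11b1 body, chr1:193226468-193229044, was more accessible and differed little, with E14.5 and P0 means of 27.5 ± 2.92 and 27.8 ± 6.36 CPM (SD, n = 3; 0.01, edgeR adjusted p = 0.988). The most accessible region in the window was the promoter of A130010J15Rik, 47.7 kb away, at 49.3 ± 3.67 and 43.4 ± 4.36 CPM (-0.18, edgeR adjusted p = 0.66).

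Hsd11b2 is a compact gene with a pair of annotated promoter regions. The one over its start (chr8:105517996-105519791) had 17.9, 16.8 and 14.7 CPM at E14.5 and 15.0, 17.3 and 19.1 CPM at P0, and the stages overlapped (0.06, SE 0.20; edgeR adjusted p = 0.922). The one 2.41 kb outside the gene had 8.83 ± 3.09 and 8.15 ± 0.608 CPM (SD, n = 3; -0.11, edgeR adjusted p = 0.882). Its smallest p was at a region 9.50 kb away, with 6.41, 5.78 and 4.32 CPM at E14.5 and 10.4, 6.20 and 5.60 at P0. There P0 library 1 alone stood above the rest (0.43, SE 0.32; edgeR adjusted p = 0.525), and without it the value was 0.08. The most accessible region in the window belonged to the promoter of Tppp3, at 42.9 ± 2.91 and 41.2 ± 10.8 CPM (-0.05, edgeR adjusted p = 0.936).

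Tsc22d3 encodes GILZ, a leucine zipper protein induced by glucocorticoids, and its window on the X chromosome held the region that passed. This region, chrX:140510116-140511891, lies 28.5 kb beyond the 3′ end of the gene, 31.7 kb downstream of the nearest RefSeq start, and carries no promoter or gene label. It had 15.2, 16.6 and 17.5 CPM in E14.5 libraries 1 to 3 and 25.9, 23.9 and 30.6 CPM in P0 libraries 1 to 3. Every P0 library lay well above every E14.5 library, and accessibility rose by 0.71 on the log2 scale (SE 0.19, 95% interval 0.30 to 1.12; edgeR adjusted p = 0.0476).

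The call was close to the threshold. It was lost with limma-voom (adjusted p = 0.0559) and without any one of E14.5 library 1 (0.17), 2 (0.0671) or 3 (0.162) or P0 library 1 (0.186) or 3 (0.123), and was kept without P0 library 2 (edgeR adjusted p = 0.047). The log2 fold change stayed between 0.58 and 0.78 in all 16 alternatives. In the authors' deposited table the same region had a log2 fold change of 0.72 and an adjusted p of 0.0713, and was the one member region classed as opening, with 0 classed as closing. That is 1.67% of the member regions classed by the authors' deposited table, against 5.34% of all regions (1243 opening and 1081 closing). The class thus reaches above the adjusted p of 0.05 used here. In the deposited comparison 2324 regions and 1 member region lay under 0.1, and 607 regions and 0 member regions under 0.05. On the X chromosome the median log2 fold change was 0.13 over 1356 regions, and 0.23 over the 825 outside promoters, of which 5.21% were called. The sex of the pooled litters is not given, and its part in the result was not tested. The table marks the region as overlapping a FANTOM enhancer and lists motif matches for Sox9, Sox4 and Maz.

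None of the other 5 regions at Tsc22d3 was called, and their difference from the called region was not tested. The promoter region over the upstream start (chrX:140598238-140601277), which holds the stretch with the TGTTCT match, had 25.7, 26.4 and 21.3 CPM at E14.5 and 23.4, 27.8 and 28.3 CPM at P0, and the stages overlapped (0.12, SE 0.19; edgeR adjusted p = 0.804). The promoter region of the inner start (chrX:140541547-140543955), the most accessible in the window by CPM, had 33.5 ± 6.42 and 33.3 ± 1.72 CPM (SD, n = 3; -0.01, edgeR adjusted p = 0.99). A region 19.2 kb beyond the gene, the neighbour of the called one and also marked as a FANTOM enhancer, had 24.5 ± 2.39 and 23.0 ± 6.78 CPM (SD, n = 3; -0.08, edgeR adjusted p = 0.899). The remaining regions had -0.15 (95% interval -0.72 to 0.41) and, at the least accessible, -0.25 (-1.47 to 0.97), an interval that holds the value of the called region.

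**Figure D3:**
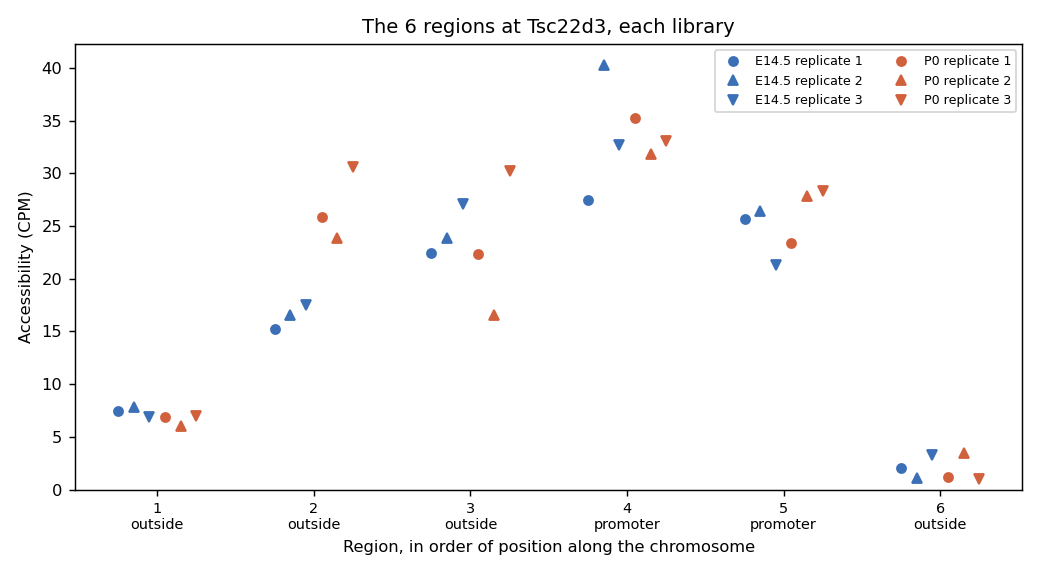
Accessibility in CPM (y axis) of each library at the 6 regions of the Tsc22d3 window, in order of position (x axis). At region 2 the P0 libraries sit between 23.9 and 30.6 CPM, above the E14.5 libraries at 15.2 to 17.5, and at the other 5 regions the stages overlap.

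Fkbp5, a co-chaperone that lowers the hormone affinity of the glucocorticoid receptor and is itself induced by glucocorticoids, had 1 region at its own promoter and 2 at promoters of other genes. The promoter region (chr17:28484707-28486697), which holds the stretch with the E-box, had 25.5, 14.19 and 15.4 CPM at E14.5 and 15.5, 13.9 and 18.2 CPM at P0. E14.5 library 1 stood above the other 5 libraries, which lay together. The log2 fold change was -0.20 (SE 0.24; edgeR adjusted p = 0.722), and it turned to 0.11 without that library. The most accessible region in the window, the promoter of Tead3 at 47.8 kb, had 30.3 ± 4.16 and 27.8 ± 3.53 CPM (SD, n = 3; -0.13, edgeR adjusted p = 0.78).

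Per1 encodes a repressor of the circadian clock that glucocorticoids also induce, and 3 regions were annotated as its promoters. The most upstream (chr11:69094599-69095622) had 44.0, 24.5 and 29.8 CPM at E14.5 and 21.9, 16.9 and 32.4 CPM at P0, with overlapping stages (-0.45, SE 0.26; edgeR adjusted p = 0.387). The value was -0.18 without E14.5 library 1, -0.26 without P0 library 2 and -0.76 without P0 library 3. The next (chr11:69098656-69099128), which holds the printed stretch, had 11.4, 7.09 and 7.24 CPM at E14.5 and 7.50, 5.15 and 5.37 at P0. Only P0 library 1 lay above the lower E14.5 libraries (-0.51, SE 0.30; edgeR adjusted p = 0.399). Without E14.5 library 1 the value was -0.25.

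The third Per1 promoter region (chr11:69099821-69100296) went the other way in its fitted value. It had 5.93, 2.10 and 5.37 CPM at E14.5 and 5.41, 8.47 and 6.31 CPM at P0, and E14.5 library 2 was the lowest by far (0.60, SE 0.38; edgeR adjusted p = 0.435). Without that library the value was 0.23. The smallest p in the Per1 window was at the promoter of a U6 small nuclear RNA, 21.5 kb away, with 15.8, 14.19 and 15.3 CPM at E14.5 and 10.5, 8.78 and 12.4 CPM at P0. The stages did not overlap there, with P0 lower by 0.50 in the fit (log2 fold change -0.50, SE 0.22; edgeR adjusted p = 0.233; unadjusted p = 0.0385).

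Zbtb16, which encodes the zinc finger repressor PLZF, had a single region in a window built on a span of 184 kb, and none at its promoter. That region (chr9:48760356-48760801, gene body) had 6.88, 3.15 and 8.64 CPM at E14.5 and 2.81, 5.90 and 2.76 CPM at P0. E14.5 library 2 and P0 library 2 broke the order of the stages, and the log2 fold change of -0.73 (SE 0.42) was not called (edgeR adjusted p = 0.384).

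**Figure D4:**
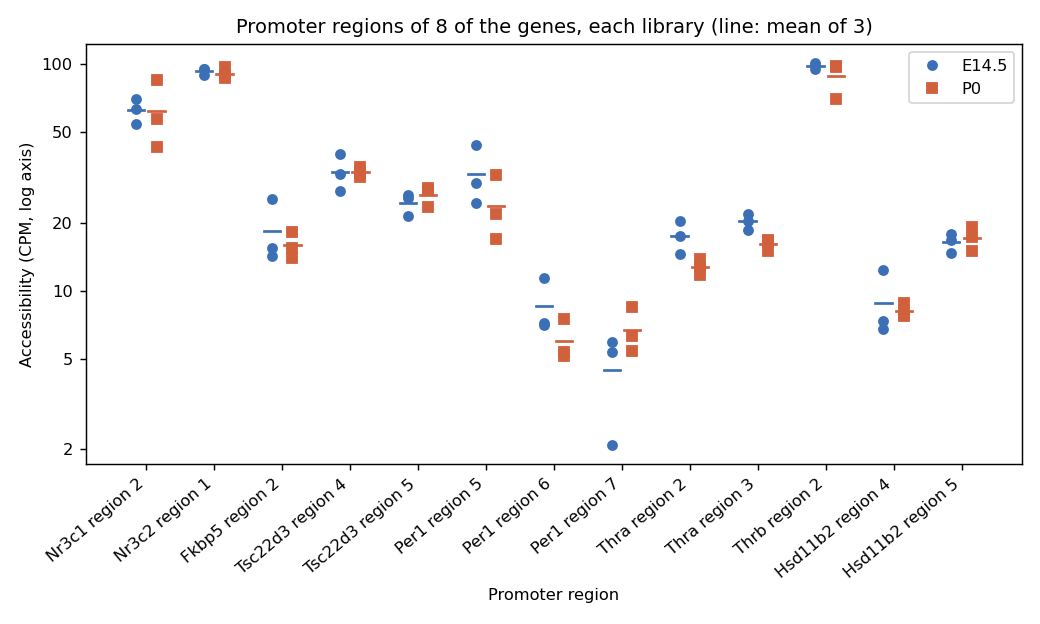
Accessibility in CPM (y axis, log scale) of each library at the 13 regions annotated as promoters of 8 of the genes (x axis), with a line at the mean of each stage. Stages overlap in all but the overlapping pair of Thra promoter regions, and Nr3c2, Thrb and Nr3c1 are the most accessible.

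Across the 13 own-promoter regions, 0 were called by edgeR (0 at an unadjusted p under 0.05), 10 were fitted below 0 and 3 above, and the median was -0.11. Of all promoter regions 0.851% were called, 8.73% had an unadjusted p under 0.05 and 34.0% were fitted above 0, with a median of -0.10. The 19 gene-body regions had a median of 0.10, with 12 above 0, of which 9 were at Thrb. By role, the median was -0.03 over 31 receptor regions, -0.08 over 12 enzyme regions and -0.15 over 17 regions of the induced genes. Promoters made up 29.0%, 58.3% and 70.6% of these regions in the same order, and the part of that share in the medians was not tested.

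The regions of each gene were also summed. The log2 ratio of the summed CPM, P0 over E14.5, was below 0 for 8 of the 10 genes and above 0 for Tsc22d3 (0.13) and Thrb (0.11). The ratios below 0 ran from -0.70 at Zbtb16, which has 1 region, through -0.26 at Per1 and -0.21 at Thra, to -0.05 at Hsd11b2. Signs near 0 were not stable: without P0 library 2 the ratio was 0.09 at Nr3c1 and 0.06 at Hsd11b2, and without E14.5 library 1 it was 0.03 at Fkbp5. Leaving out 1 library moved Zbtb16 between -1.16 and -0.39, Per1 between -0.41 and -0.15, Thra between -0.28 and -0.09, Tsc22d3 between 0.05 and 0.18 and Thrb between 0.05 and 0.17. The Thra sum counts the reads shared by its overlapping promoter regions in both. No gene separated the stages beyond the spread between libraries (exact two-sided permutation tests, unadjusted p = 0.2 to 0.8 over the 10 genes).

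**Figure D5:**
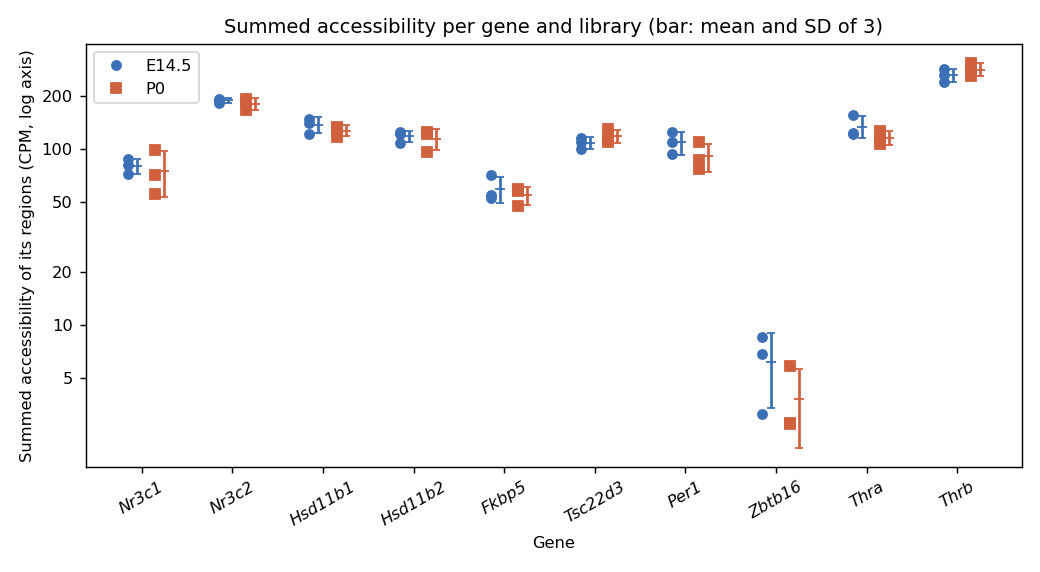
Summed accessibility in CPM (y axis, log scale) of all regions of each gene (x axis), one point per library with the mean and SD of 3 libraries. The stages overlap for each of the 10 genes, and the means run from 3.83 CPM at Zbtb16 to 283 CPM at Thrb.

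Other genes of the hormone pathways were read by the same rule, leaving out 8 regions that also lie at a member gene and are counted there. Of 49 further genes in 6 lists, 46 had a region besides these, and of their 161 regions 2 were called (1.24%, against 4.73% of all regions), with 15 at an unadjusted p under 0.05 (9.32%, against 18.7% of all) and a median of -0.10. Among these regions 60.2% were promoters, and of all promoter regions 0.851% were called. The receptor chaperones and cofactors had 1 call in 45 regions, corticosteroid metabolism 1 in 11, glucocorticoid targets 0 in 53, thyroid hormone transport and deiodination 0 in 19, thyroid hormone targets 0 in 16 and circadian genes 0 in 17. The 4 lists without an edgeR call had 3, 2, 2 and 2 regions at an unadjusted p under 0.05, in that order.

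One of the calls was an intergenic region 13.3 kb from Akr1c18 (chr13:4118490-4120062), a gene for a steroid reductase that inactivates progesterone. It had 15.8, 19.3 and 23.7 CPM at E14.5 and 5.00, 6.66 and 12.9 CPM at P0, with every P0 library below every E14.5 library, and fell by 1.23 on the log2 scale (SE 0.31; edgeR adjusted p = 0.0328). The other was an intergenic region 17.1 kb from Rxrg (chr1:167580998-167581504), which encodes a retinoid X receptor, the partner of thyroid hormone receptors on DNA. It had 2.02, 2.45 and 1.52 CPM at E14.5 and 6.25, 4.69 and 4.82 CPM at P0, with no overlap, and rose by 1.38 (SE 0.37; edgeR adjusted p = 0.0433). The Akr1c18 call was lost without E14.5 library 2 or 3 or P0 library 1 or 2 (edgeR adjusted p of 0.0503 to 0.191, at log2 fold changes of -1.25 to -0.98), and was kept with limma-voom and with loess offsets. The Rxrg call was lost without E14.5 library 1 or 3 or P0 library 1 or 2 (edgeR adjusted p of 0.0575 to 0.25), with loess offsets (0.0526) and with limma-voom (0.0625), at log2 fold changes of 1.22 to 1.45.

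In the table's own annotation, 37 of the 60 regions carried a listed transcription factor motif (61.7%, against 62.3% of all regions), and none of the 56 motif names listed anywhere in the table is a nuclear receptor. Maz matches were listed in 17 member regions (28.3%, against 21.3% of all), E2f matches in 13 (21.7% against 15.2%), Fox matches in 9 (15.0% against 21.0%) and Sox matches in 4 (6.67% against 13.2%). These shares were set side by side without a test, and the larger part of promoters among the members was not taken into account in them. A FANTOM enhancer overlapped 6 of the 60 regions (10.0%, against 9.65% of all).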

How the data were processed

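The authors deposited one table of raw counts of open regions, with a column for each of the 6 ATAC-seq libraries (3 per stage). Stage and replicate number were taken from the source names. Coordinates are mm10, per the submitters' processing notes. The aligner, peak caller, counting rule, duplicate removal and Tn5 offset correction are not given in the sources used here. The same table held the authors' deposited comparison, with a log2 fold change and log2 mean, a score (the t statistic) and a p-value with its adjusted form. All columns of sample values matched a library title (0 unmatched).

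Of 45489 rows, 1966 repeated a region and were counted once. The test was edgeR 4.0.16 under R 4.3.3 (TMM scaling; filterByExpr, which removed 0 regions; quasi-likelihood test with stage as the only term), with Benjamini-Hochberg adjustment over 43523 regions at 0.05. CPM used TMM-scaled library sizes. DESeq2 1.42.0 and limma 3.58.1 were alternatives, and the fit was tested on simulated data. Each library is a separate litter pool, so p-values measure the spread between litters. Per-gene sums were tested by exact permutation in scipy 1.17.1.

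Gene spans came from RefSeq GRCm38.p6, and promoter and gene labels from the table. Regions named were each member's promoter regions, its region with the highest CPM and its called region or smallest p, and for the other pathway genes the called regions. Regions singled out beyond that rule, such as the Nr1d1 promoter and the neighbours of the called region, were chosen after their values were seen. Motifs were planned for region centres, for which no genome was used here, and were searched in RefSeq promoter stretches instead. The E-box and cyclic AMP motifs were added to that search. The members and all lists were chosen with earlier results of these data known.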

Additional observations from a re-analysis of the deposited data

How the results depend on the processing

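Counts of calls were sensitive to single libraries. Leaving out each replicate in turn gave 339 to 2987 called regions over the table, 0 to 1 called member regions (all of them higher at P0), 0 to 4 called pathway regions and a median log2 fold change over the members of -0.10 to -0.03. Without E14.5 replicate 2 the 1 called member region was Thrb region 6, and without P0 replicate 2 it was Tsc22d3 region 2. Of the member regions and of those called higher at P0, 0 were called with limma-voom, with the replicate block and with a window of 10 kb. The count of member regions called lower was 0 in all 18 settings. Pathway calls numbered 5 with DESeq2, 1 with limma-voom, 1 with the block, 6 at an adjusted p of 0.1 and 0 within 10 kb. The table had 3490 calls at an adjusted p of 0.1. Total-count scaling moved the median of all regions from 0.01 to 0.07 and that of the members to -0.02. The members' median was -0.01 within 10 kb. At these depths and with 3 libraries per stage, 32% of simulated 2-fold changes were recovered where 200 regions changed. The measured counts gave 2059 calls and so a less strict adjustment, to which the 32% does not carry over.

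Fits near 0 changed sign. Under total-count scaling, whose shift of all regions is given above, the values were 0.05 at Nr3c1 region 2, 0.02 at Nr3c2 region 1, 0.04 at Tsc22d3 region 4 and 0.01 at Hsd11b2 region 1, and with loess offsets 0.08, 0.13, 0.06 and 0.02. Tsc22d3 region 4 was 0.01 with limma-voom and 0.01 with the block. Leaving out single libraries gave -0.33 to 0.19 at Nr3c1 region 2, -0.37 to 0.11 at Fkbp5 region 2, -0.13 to 0.14 at Tsc22d3 region 4, -0.21 to 0.15 at Hsd11b2 region 1, -0.27 to 0.21 at Hsd11b2 region 4 and -0.05 to 0.13 at Hsd11b2 region 5. None of these regions was called in any setting. Beyond that shift, the cause was not tested. Of the values for named regions, 393 kept direction and whether called, 18 lost a call, 20 changed sign and 1 gained a call. Most of the 393 belong to regions that had no call to lose. The 18 lost calls all fall on Tsc22d3 region 2 and the regions near Akr1c18 and Rxrg, the only named regions called in the main fit.

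Replicate numbers are shared by the stages but mark different litters. Deviations of same-numbered libraries correlated at 0.0666, -0.14 and 0.0767, and 2 of 6 libraries correlated best with their own number. With the replicate block 1834 regions were called, against 2059, and Tsc22d3 region 2 had an adjusted p of 0.057. The region near Rxrg lost its call with the block (0.0835), and the region near Akr1c18 kept it (0.0152).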

Other observations

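The table lists linked genes for 26 of the 60 regions at the hormone response genes, and 0 of these regions list the gene whose window they lie in. Of 124 such links whose gene has a RefSeq chromosome, 0 name a gene on the chromosome of the region. Over all regions, 998 of 183214 links (0.545%) did. For regions on chromosomes 3 to 19, 125087 of 150012 links (83.4%) named a gene on the chromosome numbered 2 lower, for example 92.4% of the links of chromosome 11 regions named genes on chromosome 9. The linked genes were not used in any result here.

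Among other genes of the pathways, the stages did not overlap in 29 of the 161 regions (18.0%, against 24.2% of all regions), 13 with P0 above and 16 with P0 below. By list, the stages were apart with P0 above in 3 and below in 2 of 45 regions of receptor chaperones and cofactors. The counts were 7 and 3 of 53 for glucocorticoid targets and 0 and 1 of 11 for corticosteroid metabolism. They were 1 and 3 of 19 for thyroid hormone transport and deiodination, and 1 and 4 of 16 for thyroid hormone targets. For circadian genes they were 1 and 3 of 17. Over all regions they were 5147 and 5401, and over all promoter regions 653 and 1708. The 4 regions with an adjusted p between 0.05 and 0.1 are given here, chosen after their values were seen. A promoter region of Thrsp, a gene induced by thyroid hormone, had 7.12 ± 0.890 CPM at E14.5 and 12.7 ± 0.762 CPM at P0 (SD, n = 3), with a log2 fold change of 0.83 and an edgeR adjusted p of 0.0591. An intergenic region 22.7 kb from Crym, which encodes a thyroid hormone binding protein, had 11.2 ± 4.64 and 5.13 ± 1.08 CPM (-1.14, edgeR adjusted p = 0.064). A region 34.5 kb from Ncoa1, which encodes a receptor coactivator, had 5.23 ± 0.233 and 9.82 ± 1.20 CPM (0.91, edgeR adjusted p = 0.0654). The region near Klf9, a target of both hormones, that is annotated to 2410080I02Rik had 34.5 ± 4.39 and 53.3 ± 9.83 CPM (0.63, edgeR adjusted p = 0.0991).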
